A study of Mus musculus with 23 samples.

Results

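The proteasome is the protease complex that degrades ubiquitin-tagged proteins, and its subunit genes were followed here in lung RNA-seq of BALB/c mouse offspring. Members were chosen by name: every symbol formed of Psm, a letter from a to g and a number. Of 35322 genes listed, 50 carried such a symbol, and 46 of these passed the filter of 0.5 RPM or more, RPM being the reads on a gene scaled to a fixed library total, in 4 or more of the 23 libraries. The 46 were 6 alpha ring genes, 6 constitutive beta ring genes, 6 ATPases of the regulatory base, 14 non-ATPase regulatory genes, 4 assembly chaperones, 4 other activators or inhibitors, Psmc3ip, and the 5 immunoproteasome genes Psmb8, Psmb9, Psmb10, Psme1 and Psme2. Apart from the immunoproteasome genes, classes followed the symbols, so an assembly chaperone with a Psmd symbol counts among the non-ATPase genes. Psmc3ip matched by symbol alone: its product is a meiotic recombination factor that binds the ATPase encoded by Psmc3 and is no subunit.

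The offspring were females aged 13 weeks. Their dams received intranasal PM2.5, fine particulate matter suspended in saline, or saline alone (Sham), from before mating through gestation until weaning. Offspring of both kinds of dam were either challenged with nebulised ovalbumin (OVA) after sensitisation to OVA with alum by intraperitoneal injection, a model of allergic airway inflammation, or received a nebulised vehicle, saline in the study's methods and PBS in the labels. The study's methods describe the sensitisation for offspring in general and set the controls apart by the nebulised saline. The 4 groups were Sham (n = 7), PM (n = 7), Sham-OVA (n = 5) and PM-OVA (n = 4), with 1 library per animal. The tissue was a snap-frozen piece of right lung, labelled RML and described in the methods as the lower lobe, from animals that had undergone methacholine lung function tests. The 4 markers of alveolar type 2 cells summed to 11534 RPM or more in every library. The labels do not give the litter of an animal, so the p-values measure the spread between these samples, which may include littermates.

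Reads on genes numbered 13827228 to 16671489 in Sham, 13089691 to 17393579 in PM, 2298645 to 12185451 in Sham-OVA and 4324326 to 12355561 in PM-OVA. Depth therefore fell with the challenge, and the challenge and the depth of the libraries cannot be told apart. In 1 Sham library, replicate 1, the female-specific transcript Xist was at 0.289 RPM against 174 to 1618 RPM in the other 22, and the Y-linked Ddx3y was at 123 RPM against at most 0.132 RPM. That library went against the description of the offspring as female, and it was the lowest of the Sham group for 27 of the 46 proteasome genes. Sham-OVA replicate 3, the shallowest library, was the lowest of its group for 29 and the highest for 10. Lowest and highest libraries were not counted over all genes, so these traits are not read as particular to the proteasome genes. Counts are given below with and without these libraries.

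The proteasome core is a stack of rings in which alpha subunits form the gate and beta subunits hold the active sites. A regulatory particle, with a base of ATPases and a set of non-ATPase subunits, binds the gate, captures ubiquitinated proteins and unfolds them. Interferon gamma induces Psmb8, Psmb9 and Psmb10, which encode catalytic subunits that replace those of Psmb5, Psmb6 and Psmb7 in newly assembled cores, and Psme1 and Psme2, the subunits of an activator ring that opens the gate without ubiquitin. Cells of haematopoietic origin express immunoproteasome genes constitutively. The peptides produced are loaded on MHC class I molecules.

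The interferon-responsive genes are shown first by the DNA in front of their start sites, since these 5 share a regulator in textbook accounts. The 250 bases before the annotated start (RefSeq, GRCm38.p6) are printed 5′ to 3′ on the gene's strand, with matches to the gamma-activated site TTCNNNGAA, a motif of interferon-responsive promoters, in capitals. The windows were Psmb8 at chr17:34197945-34198194 on the plus strand, Psmb9 at chr17:34187331-34187580 on the minus strand, Psmb10 at chr8:105938393-105938642 on the minus strand, Psme1 at chr14:55578244-55578493 on the plus strand and 1 of the entries for Psme2 at chr14:55591102-55591351 on the minus strand.
Psmb8: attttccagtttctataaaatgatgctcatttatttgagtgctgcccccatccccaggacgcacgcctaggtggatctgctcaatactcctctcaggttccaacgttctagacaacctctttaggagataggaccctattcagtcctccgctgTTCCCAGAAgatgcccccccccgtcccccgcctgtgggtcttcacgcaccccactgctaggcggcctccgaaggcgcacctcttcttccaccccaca
Psmb9: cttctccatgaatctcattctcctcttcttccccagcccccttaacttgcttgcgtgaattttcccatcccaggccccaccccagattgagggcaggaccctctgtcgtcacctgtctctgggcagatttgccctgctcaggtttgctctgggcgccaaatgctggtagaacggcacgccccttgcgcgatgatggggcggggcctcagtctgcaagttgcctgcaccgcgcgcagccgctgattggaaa
Psmb10: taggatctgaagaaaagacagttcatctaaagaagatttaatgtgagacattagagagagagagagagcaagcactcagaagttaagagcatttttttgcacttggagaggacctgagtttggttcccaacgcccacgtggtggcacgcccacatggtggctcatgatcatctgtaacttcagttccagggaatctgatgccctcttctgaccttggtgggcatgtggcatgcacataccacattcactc
Psme1: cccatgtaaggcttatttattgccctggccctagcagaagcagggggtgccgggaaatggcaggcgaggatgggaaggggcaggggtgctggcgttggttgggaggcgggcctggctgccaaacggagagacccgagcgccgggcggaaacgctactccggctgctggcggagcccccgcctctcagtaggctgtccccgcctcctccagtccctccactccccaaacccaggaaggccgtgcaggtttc
Psme2: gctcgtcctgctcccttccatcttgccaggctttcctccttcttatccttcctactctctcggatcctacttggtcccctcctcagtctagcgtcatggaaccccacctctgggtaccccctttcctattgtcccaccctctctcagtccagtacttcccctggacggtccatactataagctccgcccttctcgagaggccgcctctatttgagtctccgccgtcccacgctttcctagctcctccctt

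Promoters of 42 members were taken from the RefSeq table, 45 in all, and both strands were searched. Psma8 and Psmg2, on chromosome 18, were left out, while the shares over all promoters were not limited in that way. The gamma-activated site stood in 2 of the 45, 97 bases before the start of Psmb8 and 243 bases before that of the chaperone gene Psmg1, against 7.02% of all 32851 promoters of the same length. The interferon-stimulated response element (ISRE) stood in 3, those of Psmd4, Psmd9 and Psmb3, against 2.98% of all promoters. The core of the antioxidant response element, TGACNNNGC, stood in 5, those of Psmb5, Psmb6, Psmc6, Psmd9 and Psmd12, against 10.2% of all. A match is a run of letters and not a shown binding site, and the windows without one say nothing of sites elsewhere. In the gene annotation used for lengths here, Psmb8, Psmb9 and Psme1 begin upstream of the RefSeq starts used. Their printed windows, with the Psmb8 match, lie wholly inside those gene models.

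The first question was how the proteasome genes differed between OVA-challenged and unchallenged offspring of each kind of dam. Among the 46, 23 rose and 9 fell in Sham-OVA against Sham, and 24 rose and 12 fell in PM-OVA against PM (limma on log2(RPM + 0.5), Benjamini-Hochberg adjusted p under 0.05 over 16795 genes tested). Over all genes tested, 20.6% rose and 47.5% fell in Sham-OVA, and 20.1% rose and 45.2% fell in PM-OVA. The median log2 fold change of the 46 was 0.42 in the Sham cohort and 0.32 in the PM cohort, beside −0.48 and −0.43 over all genes. Without Sham replicate 1, 23 rose and 8 fell, and without Sham-OVA replicate 3, 31 rose and 9 fell. Without PM-OVA replicate 2, 18 rose and 12 fell, and in the other PM-OVA omissions 22 to 24 rose and 9 to 13 fell.

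Both cohorts used their own saline group, and 22 genes rose in both while 9 fell in both. Psme3 passed upwards in the Sham cohort alone, Psme1 and Psmg2 passed upwards in the PM cohort alone, and Psma6, Psmd12 and Psmd5 passed downwards in the PM cohort alone. Those 6 are not shown to differ between cohorts, since the interaction called none. In the Sham cohort, the OVA values of 16 of the 46 genes lay wholly above the saline values, beside 13.2% of all genes, and those of 6 wholly below, beside 35%. In the PM cohort this held for 21 above, beside 13.3%, and for 9 below, beside 28.6%. The study's threshold, an adjusted p under 0.000001 and a log2 fold change over 1, was applied there to DESeq2 on raw counts. Applied here to limma, it kept Psmb9, Psmb8, Psmd8 and Psmg3 in the Sham cohort, beside 1.98% of all genes passing upwards. In the PM cohort limma kept no member, beside 0.262%. With DESeq2 on recovered reads, Psmb8, Psmb9 and Psmb10 passed it in the PM cohort at 2.06, 2.46 and 3.01 (DESeq2 adjusted p = 2.9e-14, 1.6e-13 and 3.5e-10). Psme1 (0.83) and Psme2 (0.15) did not. The share of all genes passing it with DESeq2 was not counted.

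**Figure D1:**
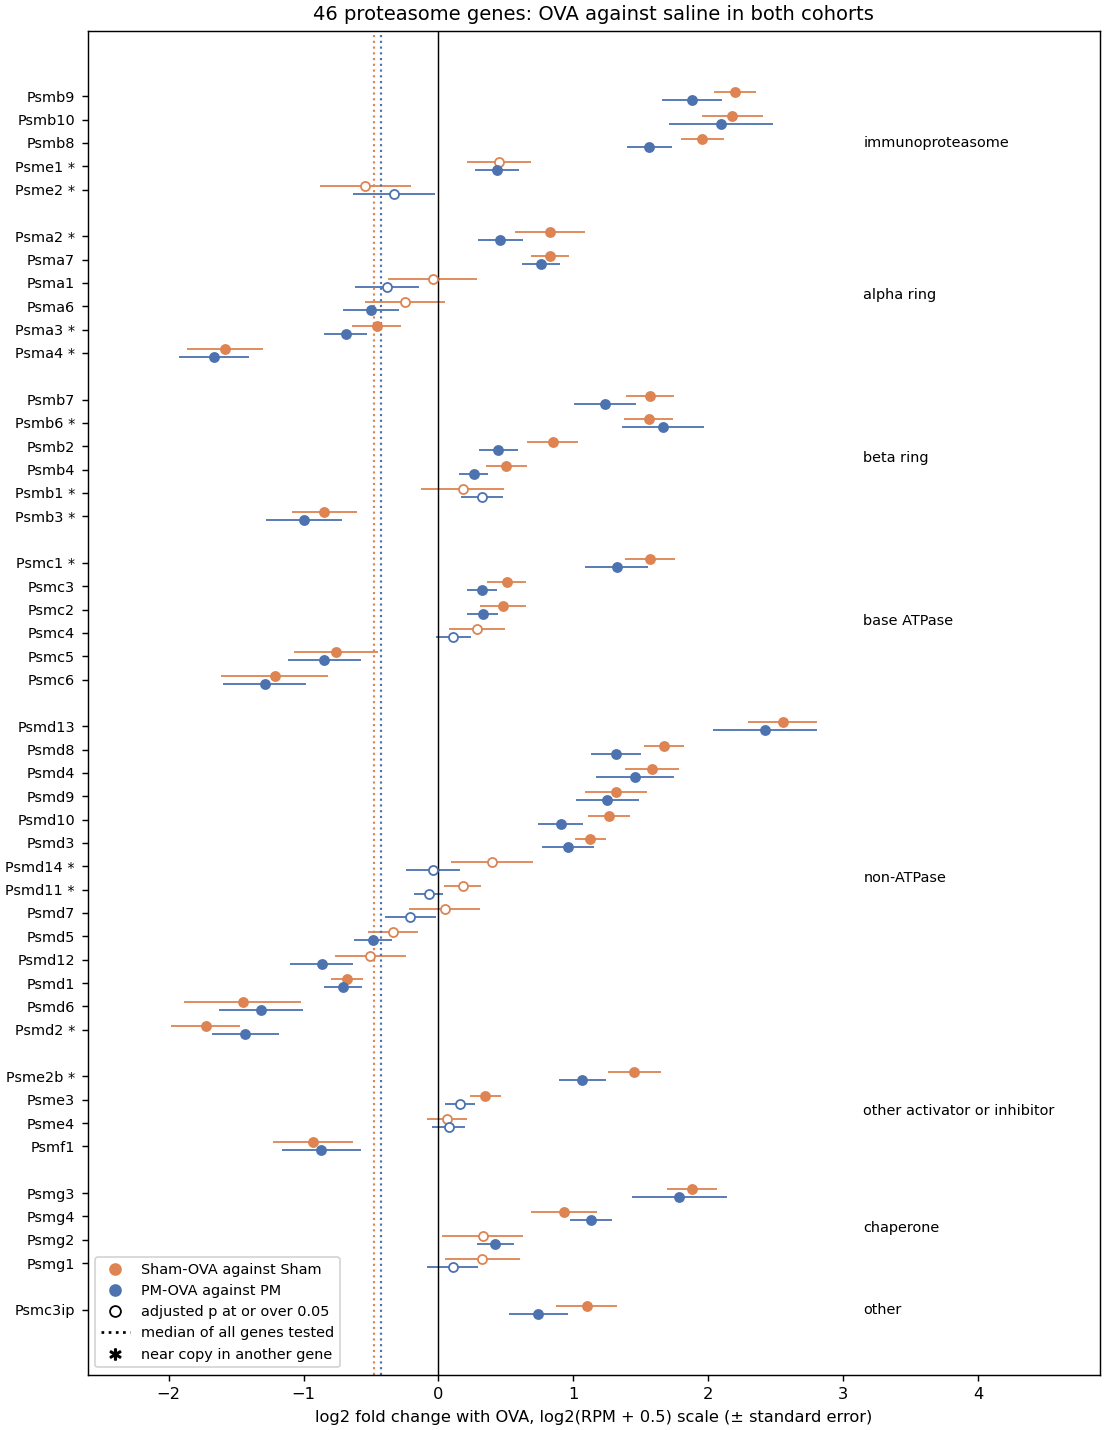
Each row is 1 of the 46 genes and the horizontal axis is the log2 fold change with OVA on the log2(RPM + 0.5) scale, with the standard error as bars, for Sham-OVA against Sham and PM-OVA against PM. Open points missed the adjusted p threshold, dotted lines mark the medians of all genes (−0.48 and −0.43) and asterisks mark genes with a near copy elsewhere; Psmb8, Psmb9 and Psmb10 lie to the right with Psmd13 while Psme2 lies left of 0.

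The 3 catalytic immunoproteasome genes rose in both cohorts, and none of their saline and OVA libraries overlapped. Psmb8, which encodes the chymotrypsin-like subunit that replaces Psmb5, ran from 40.9 RPM (median 61.4) to 84.8 RPM in Sham and from 49.7 RPM (median 59.0) to 76.1 RPM in PM. The Sham-OVA libraries stood at 281, 235, 213, 253 and 222 RPM and the PM-OVA libraries at 141, 157, 205 and 238 RPM. All 9 OVA libraries were thus above all 14 saline libraries. The log2 fold change of Psmb8 was 1.96 (SE 0.16, limma adjusted p = 1.7e-07) in the Sham cohort and 1.56 (SE 0.17, adjusted p = 2.6e-05) in the PM cohort.

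Psmb9, whose product replaces that of Psmb6, ran from 30.5 RPM (median 45.7) to 57.9 RPM in Sham and from 31.3 RPM (median 45.2) to 51.5 RPM in PM. It stood at 222, 196, 205, 238 and 176 RPM in Sham-OVA and at 98.8, 129, 202 and 232 RPM in PM-OVA. The Sham-OVA libraries lay close together for this gene, while the PM-OVA libraries spread from 98.8 to 232 RPM. The log2 fold changes were 2.20 (SE 0.15, limma adjusted p = 4.5e-08) and 1.88 (SE 0.22, adjusted p = 5.1e-05). Exons of Psmb9 overlap those of Tap1 on the opposite strand, and exons of Psmb8 overlap the opposite-strand Gm20496. The library kit marked strand, but the sources used here do not give the strand setting of the counting.

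Psmb10, whose product replaces that of Psmb7, ran from 26.2 RPM (median 37.0) to 49.8 RPM in Sham and from 31.0 RPM (median 37.3) to 42.9 RPM in PM. The Sham-OVA libraries held 145, 112, 314, 152 and 171 RPM and the PM-OVA libraries 56.5, 108, 279 and 337 RPM. In Psmb10 the 3 shallowest libraries were the highest, namely PM-OVA replicates 3 and 4 with Sham-OVA replicate 3. Log2 fold changes were 2.18 (SE 0.23, limma adjusted p = 1.6e-06) and 2.10 (SE 0.38, adjusted p = 5.7e-04). The part of depth in the height of these libraries was not tested.

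**Figure D2:**
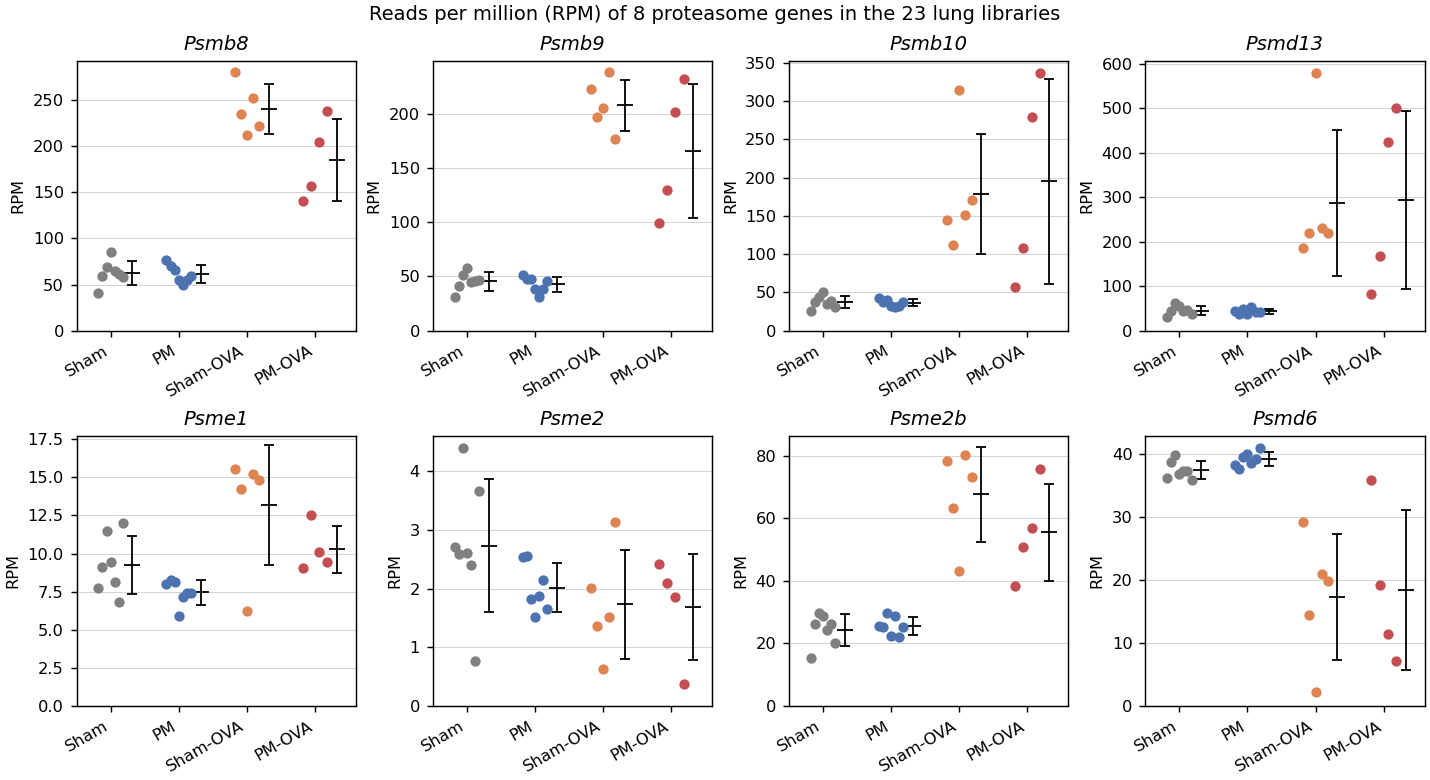
Points are RPM in single libraries of Sham, PM, Sham-OVA and PM-OVA, with the mean and SD of each group, in 1 panel for each of 8 genes. Psmb8 and Psmb9 separate the saline from the OVA libraries with a narrow spread in Sham-OVA, Psmb10 and Psmd13 spread widely among the OVA libraries, Psme2 overlaps between groups, and Psmd6 is lower with OVA.

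The activator genes Psme1 and Psme2 did not move as the catalytic trio did. Psme1 was at 9.24 ± 1.92 RPM in Sham (SD, n = 7), 7.46 ± 0.826 RPM in PM (n = 7), 13.2 ± 3.94 RPM in Sham-OVA (n = 5) and 10.3 ± 1.55 RPM in PM-OVA (n = 4). Its log2 fold change was 0.45 (SE 0.24, limma adjusted p = 0.105) in the Sham cohort and 0.43 (SE 0.16, adjusted p = 0.031) in the PM cohort. Without Sham-OVA replicate 3, where Psme1 was at 6.21 RPM, it passed in the Sham cohort too, and without PM-OVA replicate 2 it no longer passed in the PM cohort. Psme2 was at 2.73 ± 1.13 RPM in Sham (n = 7), 2.01 ± 0.415 RPM in PM (n = 7), 1.73 ± 0.934 RPM in Sham-OVA (n = 5) and 1.68 ± 0.909 RPM in PM-OVA (n = 4). Its groups overlapped, with log2 fold changes of −0.54 (SE 0.34, adjusted p = 0.163) and −0.33 (SE 0.30, adjusted p = 0.353).

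Psme2 and Psme2b, an intronless copy listed as a gene of its own on chromosome 11 (48945354 to 48946190, minus strand), share most of their sequence, so reads can be split between them. Their coding regions are both 717 bases long and differ at 5 bases, an identity of 99.3%. Coding bases 484 to 543 are shown since they hold 3 of the 5 differing bases, in capitals.
Psme2: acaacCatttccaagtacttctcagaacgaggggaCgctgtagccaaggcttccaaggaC
Psme2b: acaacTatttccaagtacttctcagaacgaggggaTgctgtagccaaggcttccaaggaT
Of all stretches of 100 bases, the length of a read, in the Psme2 transcripts, 44.5% recurred exactly in another gene, and in Psme2b 52.0% did. Only 20.05% of the Psme2 stretches lay within 1 exon, against all of those of the intronless Psme2b. Stretches within 1 exon and in no other gene made up 17.03% in Psme2 and 47.97% in Psme2b. The part of reads across exon junctions in the levels of the pair was not tested.

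Psme2b carried the higher value of the pair in every group. It ran from 15.2 RPM (median 26.1) to 29.7 RPM in Sham and from 22.1 RPM (median 25.3) to 29.8 RPM in PM, with means of 67.7 ± 15.3 RPM in Sham-OVA (n = 5) and 55.5 ± 15.6 RPM in PM-OVA (n = 4). Its log2 fold changes were 1.45 (SE 0.20, limma adjusted p = 1.7e-05) and 1.07 (SE 0.17, adjusted p = 2.9e-04). The sum of Psme2 and Psme2b spanned 18 to 34.1 RPM in Sham, 24.0 to 31.6 RPM in PM, 43.8 to 81.9 RPM in Sham-OVA and 40.7 to 76.1 RPM in PM-OVA. The pair as a sum therefore did not overlap between saline and OVA libraries, whereas the row named Psme2 did. Exons of Psme2b also overlap those of 9930111J21Rik1 on the same strand. Whether the reads on Psme2b came from transcripts of Psme2 or of 9930111J21Rik1 was not tested. The levels of Psme2, of Psme2b and of their sum are uncertain.

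The constitutive counterparts of the catalytic trio were measurable for 2 of the 3. Psmb6, the caspase-like subunit, ran from 20.7 RPM (median 23.6) to 33.4 RPM in Sham and from 19.5 RPM (median 22.5) to 25.4 RPM in PM, with means of 75.9 ± 22.5 RPM in Sham-OVA (n = 5) and 84.1 ± 45.5 RPM in PM-OVA (n = 4). The trypsin-like Psmb7 ran from 5.25 RPM (median 7.09) to 8.94 RPM in Sham and from 7.04 RPM (median 8.34) to 10.8 RPM in PM, with means of 22.2 ± 3.65 RPM in Sham-OVA (n = 5) and 21.7 ± 8.04 RPM in PM-OVA (n = 4). Both rose, Psmb6 by 1.56 (SE 0.18, limma adjusted p = 4.7e-06) and 1.66 (SE 0.30, adjusted p = 5.3e-04) and Psmb7 by 1.57 (SE 0.18, adjusted p = 2.9e-06) and 1.24 (SE 0.23, adjusted p = 6.1e-04) on the log2 scale. Psmb5, the counterpart of Psmb8, was listed between 0 and 0.0752 RPM in the 23 libraries and was under the filter. Psme3, which encodes the nuclear activator related to Psme1 and Psme2, was at 70.6 ± 5.32 RPM in Sham (n = 7), 72 ± 2.25 RPM in PM (n = 7), 90 ± 8.63 RPM in Sham-OVA (n = 5) and 81.0 ± 10.6 RPM in PM-OVA (n = 4). Psme3 rose by 0.35 (SE 0.11, adjusted p = 0.015) in the Sham cohort and differed by 0.16 (SE 0.11, adjusted p = 0.22) in the PM cohort.

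Since the constitutive partners rose too, each inducible gene was set against its partner within a library, as log2 of the ratio of both values after adding 0.5. The difference was tested with a two-sided exact permutation test, adjusted over 16 tests (4 ratios, 4 pairs of groups). The smallest p possible was 0.00126 in the Sham cohort and 0.00303 in the PM cohort. For Psmb10/Psmb7 the log2 ratio was 2.29 ± 0.207 in Sham (SD, n = 7) and 2.90 ± 0.566 in Sham-OVA (n = 5), a difference of 0.61 (exact permutation p = 0.00253, adjusted p = 0.0404). In the PM cohort it was 2.03 ± 0.179 in PM (n = 7) and 2.89 ± 0.636 in PM-OVA (n = 4), a difference of 0.86 (exact permutation p = 0.00606, adjusted p = 0.0485). The OVA libraries with the highest Psmb10/Psmb7 ratio were the shallow ones, Sham-OVA replicate 3 at 3.90 beside PM-OVA replicates 3 and 4 at 3.39 and 3.47. Without Sham-OVA replicate 3 the difference in the Sham cohort was 0.36 and missed the threshold (exact permutation adjusted p = 0.0808). Without Sham replicate 4 or 5 it missed narrowly at 0.63. In the PM cohort the call was lost on leaving out any library but PM replicate 1. Leaving out a library also raises the smallest p possible, so a lost call need not mean a smaller difference. Without PM-OVA replicate 1 the difference was 1.09, and without PM-OVA replicate 4 it was 0.67 (exact permutation adjusted p = 0.0539 and 0.0889). After removal of the length and GC trend described below the difference passed in neither cohort.

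For Psmb9/Psmb6 the log2 ratio was 0.841 ± 0.214 in Sham (n = 7) and 1.48 ± 0.462 in Sham-OVA (n = 5), a difference of 0.64 that missed the threshold after adjustment (exact permutation p = 0.0101, adjusted p = 0.0539), although it passed without Sham-OVA replicate 3 (0.80) or without Sham replicate 6 (0.67). In the PM cohort the difference was 0.21 (exact permutation adjusted p = 0.494). Psme1/Psme3 differed by 0.10 and 0.27 (exact permutation adjusted p = 0.915 and 0.298), and Psme2/Psme3 by −0.89 and −0.49 (adjusted p = 0.162 and 0.358). The ratio Psmb8/Psmb5 was not computed, Psmb5 being listed near 0.

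**Figure D3:**
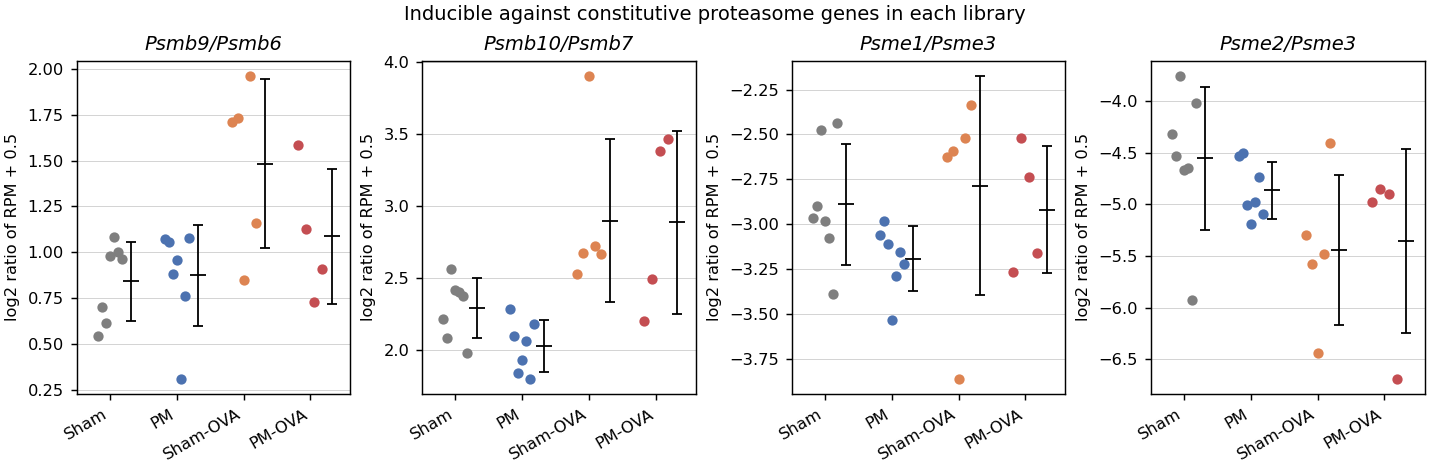
Each point is the log2 ratio of an inducible gene to its constitutive counterpart in 1 library, in 4 panels, by group, with the mean and SD. Psmb10/Psmb7 is higher with OVA in both cohorts, from 2.29 to 2.90 and from 2.03 to 2.89, while Psme1/Psme3 overlaps in both cohorts.

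In the rest of the beta ring, which has structural roles, Psmb2 and Psmb4 rose in both cohorts, Psmb1 passed in neither, and Psmb3 fell. Psmb2 rose by 0.85 and 0.44 (limma adjusted p = 0.0011 and 0.016) and Psmb4 by 0.50 and 0.26 (adjusted p = 0.0088 and 0.049) on the log2 scale. The PM cohort call of Psmb4 was lost without PM-OVA replicate 1, 2 or 4 and turned to lower on removal of the length and GC trend described below, and that of Psmb2 was lost without PM-OVA replicate 2. Psmb3, at 2.96 ± 0.972 RPM in Sham (n = 7) and 1.38 ± 0.328 RPM in Sham-OVA (n = 5), fell by 0.85 and 1.00 (adjusted p = 0.0060 and 0.0078), and it has several processed pseudogenes of at least 90% identity. Counting Psmb6 and Psmb7, 4 of the 6 constitutive beta genes rose and 1 fell in each cohort.

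The alpha ring, which gates the core, was split. In the Sham cohort 2 of its 6 genes rose and 2 fell, and in the PM cohort 2 rose and 3 fell. Psma7 rose by 0.83 and 0.76 (limma adjusted p = 1.1e-04 and 6.2e-04) and Psma2 by 0.83 and 0.46 (adjusted p = 0.011 and 0.029). Psma4 showed the lowest fold change, −1.58 and −1.66 (adjusted p = 1.8e-04 and 2.3e-04), at levels close to the filter: 2.15 ± 1.01 RPM in Sham (n = 7) and 0.356 ± 0.204 RPM in Sham-OVA (n = 5). Psma3 fell by 0.46 and 0.69 (adjusted p = 0.034 and 0.0023). Psma1 passed in neither cohort.

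Among the ATPases, which unfold substrates and thread them into the core, Psmc1, Psmc2 and Psmc3 rose, Psmc5 and Psmc6 fell, and Psmc4 passed in neither cohort. Psmc1 went from 8.33 ± 2.08 RPM in Sham (n = 7) to 25.3 ± 3.13 RPM in Sham-OVA (n = 5) and from 8.41 ± 1.16 RPM in PM (n = 7) to 23 ± 8.38 RPM in PM-OVA (n = 4), log2 fold changes of 1.57 and 1.32 (limma adjusted p = 4.6e-06 and 4.7e-04). Psmc6 ran from 27.5 RPM (median 30.5) to 34.4 RPM in Sham and from 28.8 RPM (median 29.7) to 31.1 RPM in PM. With OVA it was at 22, 14.2, 2.49, 22.5 and 19.4 RPM in Sham-OVA and at 21.4, 21.3, 5.58 and 7.81 RPM in PM-OVA. All OVA libraries were below all saline ones for Psmc6, the 3 shallow ones farthest. It fell by 1.21 and 1.29 on the log2 scale (adjusted p = 0.014 and 0.0030). The genes of 1 hexameric ring thus spanned log2 fold changes from −1.21 to 1.57 in the Sham cohort.

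The non-ATPase genes spanned a still wider range. In each cohort 6 of the 14 rose, Psmd3, Psmd4, Psmd8, Psmd9, Psmd10 and Psmd13, while 3 fell in the Sham cohort (Psmd1, Psmd2 and Psmd6) and 5 in the PM cohort (these and Psmd5 and Psmd12). Psmd13, a lid subunit, had the highest fold change of all 46 genes, 2.55 (SE 0.26, limma adjusted p = 1.2e-06) and 2.42 (SE 0.39, adjusted p = 2.7e-04). It ran from 29.9 RPM (median 43.1) to 62.3 RPM in Sham and from 36.7 RPM (median 42.5) to 52.7 RPM in PM, against 186, 220, 579, 231 and 219 RPM in Sham-OVA and 82.6, 167, 425 and 502 RPM in PM-OVA. As for Psmb10, the 3 shallow libraries were the highest. Exons of Psmd13 overlap those of Sirt3 on the opposite strand.

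Psmd8, a lid subunit, rose by 1.67 and 1.32 (limma adjusted p = 3.6e-07 and 1.3e-04), and Psmd4, a receptor for ubiquitin chains, by 1.58 and 1.45 (adjusted p = 8.7e-06 and 9.5e-04). Psmd2, with Psmd1 a scaffold of the base, had the lowest fold change in the Sham cohort, −1.73 (adjusted p = 4.0e-05), with −1.43 (adjusted p = 4.1e-04) in the PM cohort, from 6.59 ± 1.15 RPM in Sham (n = 7) to 1.79 ± 1.05 RPM in Sham-OVA (n = 5). Psmd1 fell by 0.68 and 0.71 (adjusted p = 1.4e-04 and 8.9e-04). Psmd6, a lid subunit, ran narrowly from 35.8 to 39.9 RPM in Sham and from 37.6 to 40.9 RPM in PM. It was at 29.2, 14.4, 2.17, 20.9 and 19.7 RPM in Sham-OVA and at 35.8, 19.2, 11.4 and 7.08 RPM in PM-OVA. The 3 shallow libraries were thus the lowest for Psmd6 and the highest for Psmb10. Psmd6 fell by 1.45 and 1.31 on the log2 scale (adjusted p = 0.0082 and 0.0029).

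Among the remaining regulators, Psmf1, which encodes an inhibitor of the core, fell by 0.93 and 0.87 (limma adjusted p = 0.012 and 0.020), and Psme4, a nuclear activator, differed by 0.06 and 0.08 (adjusted p = 0.72 and 0.60). Of the 4 assembly chaperones with a Psmg symbol, 2 rose in the Sham cohort and 3 in the PM cohort, and none fell. Psmg3, the chaperone of the alpha ring, went from 14.9 ± 3.07 RPM in Sham (n = 7) to 56.7 ± 15.3 RPM in Sham-OVA (n = 5) and from 14.0 ± 2.5 RPM in PM (n = 7) to 58.0 ± 34.5 RPM in PM-OVA (n = 4), log2 fold changes of 1.88 and 1.78 (adjusted p = 9.5e-07 and 8.7e-04). Psmg4, its partner, rose by 0.93 and 1.13 (adjusted p = 0.0040 and 1.2e-04). Psmg1 differed by 0.32 and 0.11 (adjusted p = 0.31 and 0.64). Psmc3ip rose by 1.10 and 0.74 (adjusted p = 5.8e-04 and 0.010).

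Members of 1 complex are needed in fixed proportions, so their levels were also compared per kilobase of transcript, as RPM per kb. In Sham the 15 genes with a near copy elsewhere (at least 500 bases at 90% identity) had a median of 5.24 RPM per kb and the 35 without one a median of 25.2 RPM per kb. In Sham-OVA the medians were 7.52 and 33.8 RPM per kb. The 13 tested genes with a copy had 4 higher and 4 lower in the Sham cohort, and the 33 without one had 19 higher and 5 lower. In the PM cohort the counts were 5 and 4 against 19 and 8. Shares over all genes tested were 20.6% higher and 47.5% lower in the Sham cohort, and 20.1% and 45.2% in the PM cohort. The part of near copies in these calls was not tested. How reads that match several places were placed is not given in the sources used here, and most of the copies were not analysed here. Among the tested genes, the share of stretches of 100 bases within 1 exon ran from 20.05% in Psme2 to 85.63% in Psmf1 and all in Psme2b. If reads across exon junctions were not placed, levels per kb of whole transcript are not comparable between genes. This was not tested.

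**Figure D4:**
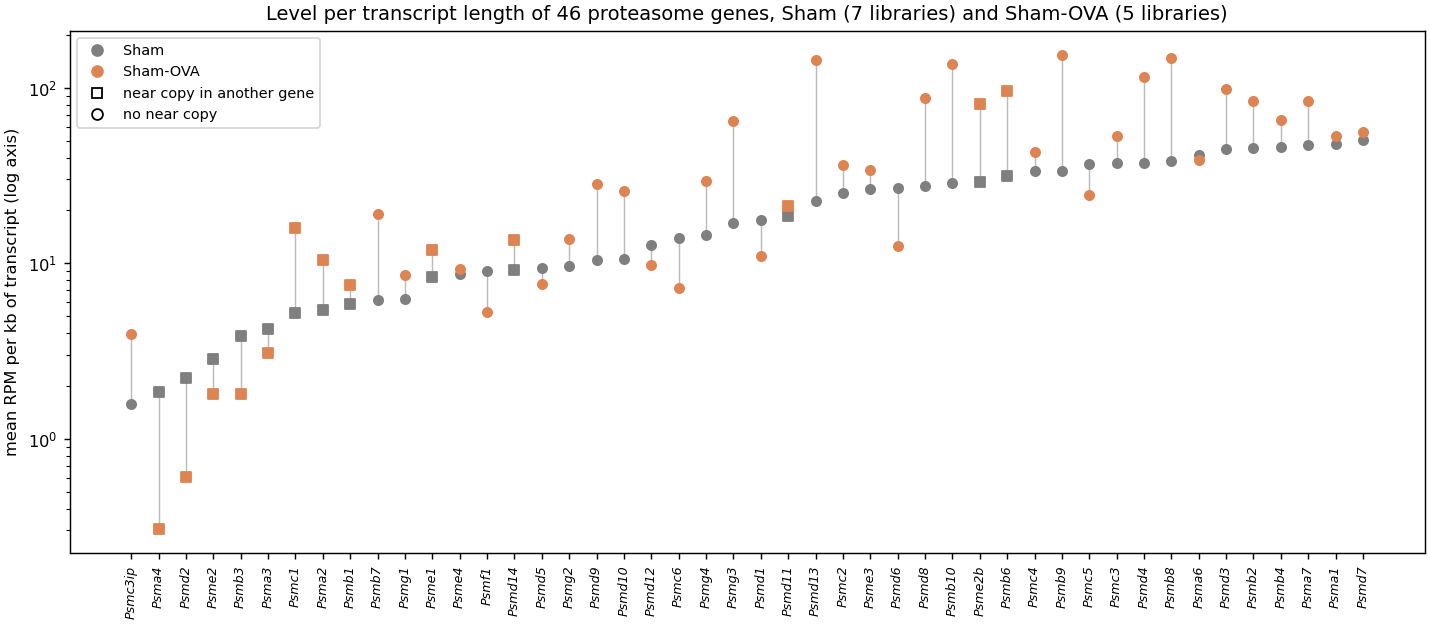
The vertical axis, logarithmic, is the mean RPM per kb of transcript in Sham and Sham-OVA for each of the 46 tested genes, ordered by the Sham level, with squares for the 13 genes with a near copy elsewhere. The squares sit mostly at the low end, with a median of 5.41 RPM per kb in Sham against 26.5 for the other 33.

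The 4 members under the filter were Psma5, an alpha ring gene listed at 0 to 0.231 RPM, Psmb5, Psmb11, the thymus-specific catalytic subunit, at most 0.0502 RPM, and Psma8, a testis-expressed alpha gene, which reached 0.5 RPM in 3 libraries with a maximum of 0.797 RPM. Psma5 encodes an obligatory part of the core, and Psmb5 one that the product of Psmb8 can replace. Of their stretches of 100 bases, 27.5% and 24.9% recurred exactly in another gene, while 37.6% and 62.6% lay within 1 exon and in no other gene. The part of shared sequence in their values near 0 was not tested, and these values are not read as levels of the genes. Just inside the filter were Psma4, which reached 0.5 RPM in 15 libraries, and Psme2, which did so in 22.

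Fold changes with OVA followed transcript length and base composition over all genes. In 4 equal bins of length, from short to long, the median log2 fold change in the Sham cohort was 0.12, −0.27, −0.62 and −1, and in 4 equal bins of GC content, from low to high, −0.86, −0.63, −0.33 and −0.02. Of the 46 proteasome genes, 30 lay in the shortest bin, with a median length of 1490.5 bases against 2956 over all genes, while their median GC content, 49.8%, was near the 50.2% of all genes. Across the 46 genes, which are no independent replicates, Spearman's rho between GC content and log2 fold change was 0.52 in the Sham cohort and 0.56 in the PM cohort. With a trend on length and GC fitted in each library and removed, 18 rose and 11 fell in the Sham cohort, beside 18.1% and 46.1% of all genes, and 16 rose and 16 fell in the PM cohort, beside 17.1% and 44.0%.

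The catalytic trio remained called after that removal, Psmb8 with log2 fold changes of 1.33 and 0.92, Psmb9 with 1.5 and 1.18 and Psmb10 with 1.42 and 1.33 in the Sham and PM cohorts. Psmd13 remained at 2.15 and 2.01. Psme1 turned negative, to −0.31 and −0.32, without a call, and Psme2 reached −1.24 and −1.01 and was called lower in both cohorts. Called genes that no longer passed after the removal were Psmc3, Psmc2, Psma7, Psma3, Psmb4, Psmb2 and Psmg4 in the Sham cohort, and Psmc3, Psmc2, Psma7, Psmb2, Psmg4, Psmg2, Psme1, Psmd5, Psmf1 and Psmc3ip in the PM cohort. In the PM cohort Psmb4 was called lower after it (−0.32, limma adjusted p = 0.035). Genes not called before also passed after the removal, among them Psme4, called higher in both cohorts. Psme4 was called higher in 7 of 27 settings in the Sham cohort and 6 of 26 in the PM cohort. Its highest log2 fold changes among these settings were 0.80 and 0.90. Over all other settings tried besides the threshold of the study, 14 genes rose under every setting in the Sham cohort, among them Psmb8, Psmb9, Psmb10, Psmb6, Psmb7, Psmd13, Psmd8 and Psmg3, and Psma4, Psmd2 and Psmd6 fell under every setting. In the PM cohort 9 rose under every setting, Psmb8, Psmb9, Psmb10, Psmc1, Psmd4, Psmd8, Psmd9, Psmd10 and Psmd13, and Psma4, Psmd1, Psmd2 and Psmd6 fell under every setting.

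**Figure D5:**
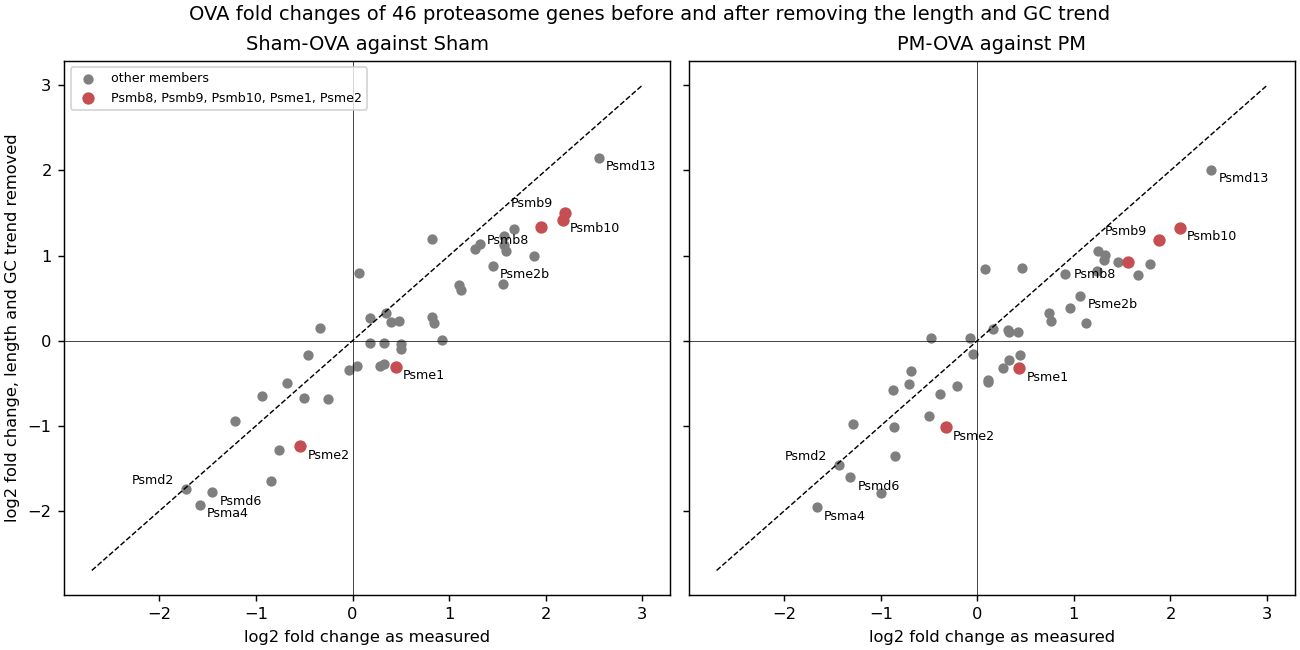
Each point is 1 of the 46 genes, with its log2 fold change as measured on the horizontal axis and after removal of the length and GC trend on the vertical axis, for Sham-OVA against Sham and PM-OVA against PM. Psmb8, Psmb9 and Psmb10 stay above 0 (1.33, 1.5 and 1.42 in the Sham cohort), Psme1 crosses 0, and most points lie below the dashed line of equality.

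The steps after the proteasome were compared through 12 genes of MHC class I peptide loading. Over all genes 20.6% rose and 47.5% fell in the Sham cohort, and 20.1% rose and 45.2% fell in the PM cohort. Of the 12 genes, 6 rose and 1 fell in the Sham cohort, and 6 rose and 4 fell in the PM cohort. Among them, H2-K1, a class I heavy chain, had the highest fold change, 2.15 and 1.70 on the log2 scale, and Tap2, a chain of the transporter that brings peptides to class I molecules, rose by 2.12 and 2.00. Its partner Tap1 was at 63.7 ± 12.2 RPM in Sham (n = 7), 59.9 ± 7.71 RPM in PM (n = 7), 99.2 ± 42.0 RPM in Sham-OVA (n = 5) and 71.8 ± 24.1 RPM in PM-OVA (n = 4), with log2 fold changes of 0.52 and 0.21 that missed the threshold. Tap1 lies next to Psmb9 and overlaps it, and its groups overlapped where those of Psmb9 did not. Erap1, which trims peptides, fell by 0.70 and 0.84.

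Of 10 genes of interferon gamma signalling, 4 rose and 4 fell in the Sham cohort and 4 rose and 5 fell in the PM cohort. Socs1, a feedback inhibitor, had the highest fold change (2.96 and 2.52 on the log2 scale), and Irf1, a transcription factor that induces immunoproteasome genes, rose by 0.84 and 0.72. The receptor chain gene Ifngr1 fell by 1.37 and 1.34. Ifng itself was under the filter. Of 10 known targets of interferon gamma, 2 rose in each cohort, the chemokine genes Cxcl10 (2.18 and 1.26) and Cxcl9 (2.00 and 1.61), with 2 lower in the Sham cohort and 4 in the PM cohort. Both interferon gamma lists thus held members that rose and members that fell. Beside them, 20.6% of all genes rose and 47.5% fell in the Sham cohort, and 20.1% and 45.2% in the PM cohort.

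Of 17 accessory genes outside the Psm symbols, 3 rose and 5 fell in the Sham cohort. In the PM cohort 4 rose and 10 fell. The shares of all genes that rose and fell were 20.6% and 47.5% in the Sham cohort, and 20.1% and 45.2% in the PM cohort. Pomp, the chaperone that matures newly formed cores, rose by 1.10 and 0.74. Zfand5, an activator of the proteasome, had the lowest (−2.30 and −2.11), Adrm1, a ubiquitin receptor, fell by 1.54 and 1.53, and Ddi2, the protease that activates the proteasome gene regulator Nfe2l1, fell by 1.27 and 1.19. Nfe2l1 itself fell by 0.41 and 0.49 (limma adjusted p = 0.022 and 0.0026). Of 6 ubiquitin genes and activating enzymes, 2 rose and 3 fell in each cohort, with Rps27a lowest (−1.52 in the Sham cohort).

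Marker lists of other cells moved in both directions. The shares of all genes were 20.6% higher and 47.5% lower in the Sham cohort, and 20.1% and 45.2% in the PM cohort. Of 3 endothelium genes, 2 fell and none rose in each cohort, and the same held for 3 club cell genes. Of 4 alveolar type 1 genes, 3 fell in each cohort and 1 rose in the Sham cohort. Among 4 alveolar type 2 genes, 2 rose and 1 fell in each cohort. Their summed level had a median of 15022 RPM in Sham, 15274 RPM in PM, 31658 RPM in Sham-OVA and 34014 RPM in PM-OVA. Of 10 leukocyte genes, 6 rose and none fell in each cohort. Their summed level was 628 to 1387 RPM in Sham, 724 to 1007 RPM in PM, 2342 to 3652 RPM in Sham-OVA and 1969 to 2947 RPM in PM-OVA, and none of the 10 was at 0 in a whole group. Ptprc, which encodes the pan-leukocyte antigen CD45, was at 163 ± 40.5 RPM in Sham (n = 7) and 177 ± 62.7 RPM in Sham-OVA (n = 5). Of 8 plasma cell genes, 6 rose and 1 fell in each cohort, with sums of 365 to 570 RPM in Sham and 7494 to 12715 RPM in Sham-OVA, and all 5 genes of interstitial macrophages rose in each cohort. In bulk tissue, more cells of a type and more RNA per cell cannot be told apart, and the part of these cells in the rise of Psmb8, Psmb9 and Psmb10 was not tested.

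The last question was whether maternal PM2.5 exposure shifted the proteasome genes. In PM against Sham, in PM-OVA against Sham-OVA and in the interaction of exposure and challenge, none of the 46 was called by limma, as was 0% of all genes. At an unadjusted p under 0.05 there were 2 members in PM against Sham and none in the others, beside 731, 313 and 854 of the 16795 genes. In PM against Sham the smallest p-values belonged to Psmd1 (log2 fold change 0.19), Psme1 (−0.27) and Psmb7 (0.23), and no adjusted p was under 0.898 in any of these comparisons. In PM-OVA against Sham-OVA they belonged to Psmb8 (−0.40, SE 0.18), Psmb9 (−0.40) and Psmd10 (−0.29). The interaction was led by Psmb8 (−0.39), Psmb2 (−0.40) and Psmd10 (−0.36). Psmb8 was at 141 to 238 RPM in the 4 PM-OVA libraries and at 213 to 281 RPM in the 5 Sham-OVA libraries, which overlap. For the ratio Psmb10/Psmb7 the difference between PM and Sham was −0.26 (exact permutation p = 0.0286, adjusted p = 0.114). Psmb9/Psmb6 differed by 0.03, Psme1/Psme3 by −0.30 and Psme2/Psme3 by −0.31 between PM and Sham (exact permutation adjusted p = 0.915, 0.162 and 0.483). Without Sham replicate 6, Psme1/Psme3 and Psme2/Psme3 passed, at −0.39 and −0.54 (exact permutation adjusted p = 0.035 and 0.045).

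The precision of these comparisons followed the spread of the challenged groups. The median within-group SD of the 46 genes on the log2 scale was 0.221 in Sham and 0.123 in PM, but 0.437 in Sham-OVA and 0.514 in PM-OVA. Over all genes the medians were 0.260, 0.202, 0.479 and 0.539. PM-OVA replicate 1 was the library of its group nearest to the PM mean for 32 of the 46 genes. That count was not made over all genes, so it is not read as particular to the proteasome genes.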

How the data were processed

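Lung RNA was sequenced as 100-base single-end reads from polyA libraries. According to the study's methods, reads were trimmed with Trimmomatic, aligned with Bowtie2 to mm10 and quantified over genes in SeqMonk. The deposited values are named RPKM by the authors but are RPM: in each library at least 99.99% of values were whole multiples (within 0.01 reads) of the worth of 1 read, and reads were recovered that way. The deposited RPM of a library sum to less than the scaling total.

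The 16795 genes that reached 0.5 RPM in 4 or more of the 23 libraries entered limma 3.58.1, with trend, on log2(RPM + 0.5), the 2 groups of a comparison at a time and all 4 for the interaction, with a call at adjusted p under 0.05. Fold changes on this scale understate the change of low genes. Replicate numbers do not pair animals. The members and gene lists were chosen with earlier results of these data known. All members are accounted for; in full are the immunoproteasome genes and counterparts, the extremes of each class, the 3 smallest p-values of the exposure comparisons and the extremes of the pathway lists, some genes of which are not reported here. Of genes tested, 16535 had a length for the trend. Near copies were sought with BLAST 2.17.0. Alternatives included edgeR 4.0.16 and DESeq2 1.42.0 on recovered reads. The fit was tested on simulated data.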

Additional observations from a re-analysis of the deposited data

Results flagged for a closer look

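In 48 group-by-gene or group-by-ratio sets of values, 6 single libraries stood far from the rest of their group, where chance flags about 1 in 20 sets. Sham-OVA replicate 3, the shallowest library, stood apart for Psme1 (6.21 RPM, the lowest), for the log2 ratio Psmb10/Psmb7 (3.90, the highest) and for the log2 ratio Psme1/Psme3 (−3.86, the lowest). PM-OVA replicate 4 had the lowest log2 ratio Psme2/Psme3 of its group (−6.69), and Sham replicate 6 had the lowest of the Sham group (−5.93). PM replicate 5 had the lowest log2 ratio Psmb9/Psmb6 of the PM group (0.31).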

How the results depend on the processing

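Under the threshold of the study, applied to limma in place of DESeq2, 4 members were higher and 0 lower in the Sham cohort. In the PM cohort 0 were higher and 0 lower. Other scalings moved the median of all genes from −0.48 (Sham cohort) and −0.43 (PM cohort) to −0.28 and −0.25 with median-of-ratios scaling (30 higher and 7 lower; 28 and 11), −0.05 and −0.02 with quantile normalization (31 and 6; 31 and 6), −0.05 and −0.06 with edgeR (33 and 3; 31 and 6) and −0.13 and −0.06 with DESeq2 (31 and 6; 31 and 8). The split of calls leaned further to higher than in the reported 23 and 9 and 24 and 12, as it did over all genes, where 26%, 32.7%, 33.2% and 31.5% were higher and 41.8%, 34.6%, 33.8% and 38.1% lower in the Sham cohort under these 4 settings in turn, against 20.6% and 47.5%. Array weights gave 32 and 9 and 18 and 14, and for the interaction 3 higher and 12 lower, beside 3.88% and 23.6% of all genes, with Psmb10 turned to 0.74. The cause was not tested.

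The replicate block, for numbers that do not pair animals (correlations over 0.1 in 1 of 5 and 0 of 4 pairs of the challenge comparisons, 1 of 7 of PM against Sham and 3 of 4 of PM-OVA against Sham-OVA, the other at −0.31), gave 20 and 7 in the Sham cohort and 16 and 6 in the PM cohort; with the length and GC trend also removed, 11 were higher in the PM cohort and Psme1 turned to −0.35. With the trend removed alone, Psme1 turned to −0.32 in the PM cohort. The ratio Psmb10/Psmb7 then differed by 0.30 and 0.51 (exact permutation adjusted p = 0.114 and 0.071), neither called, Psmb9/Psmb6 by 0.83 in the Sham cohort (adjusted p = 0.020) and Psme2/Psme3 by −1.56 and −1.15 (adjusted p = 0.034 and 0.024). With a pseudocount of 0.1 the Psmb10/Psmb7 difference in the PM cohort was 0.83 (adjusted p = 0.067).

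Leaving out 1 library at a time gave 22 to 31 higher and 7 to 10 lower in the Sham cohort, 18 to 25 higher and 9 to 13 lower in the PM cohort, and none in the other comparisons. Psmb10/Psmb7 ranged from 0.36 to 0.70 and from 0.67 to 1.09, Psmb9/Psmb6 in the Sham cohort from 0.52 to 0.80, Psme2/Psme3 from −1.15 to −0.64 in the Sham cohort and from −0.54 to −0.18 in PM against Sham, and Psme1/Psme3 in PM against Sham from −0.39 to −0.23; in PM against Sham both ratios passed without Sham replicate 6. Depth limits the low genes most: 1 read was worth 0.311 RPM in Sham-OVA replicate 3.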
